A study of Mus musculus with 12 samples.

Results

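The comparison described here asked how the left ventricle (LV) transcriptome of adult Hif1a+/- offspring differed from that of Wt offspring when the mother was not diabetic. It used 6 of the 12 samples of the series, 3 Wt and 3 Hif1a+/- LVs from non-diabetic pregnancy, and every gene with 10 or more counts in at least 3 of these 6 samples, which kept 14271 of the 46983 genes in the files. All mice were of the FVB strain and 12 weeks old, and came from Wt females mated with Hif1a+/- males that carried the Hif1a tm1jhu null allele on this background. The allele was global, so it was present in every cell type of the heart and in development as well as in the adult. The 3 LVs of a group were from separate mice of several litters. The 6 remaining samples, 3 Wt and 3 Hif1a+/-, came from mothers made diabetic with streptozotocin, and were used here to share the estimate of the spread and to look up genes named from the non-diabetic samples.

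Hypoxia-inducible factor 1 (HIF-1) is a transcription factor of an oxygen-labile alpha subunit, encoded by Hif1a, and a stable partner, encoded by Arnt. At normal oxygen the prolyl hydroxylases Egln1, Egln2 and Egln3 mark the alpha subunit, Vhl then directs it to degradation, and the asparaginyl hydroxylase Hif1an limits its activity. When oxygen is low, HIF-1 binds hypoxia response elements and raises transcription of glucose transporters, glycolytic enzymes, Vegfa and many other genes. The adult heart depends mostly on fatty acid oxidation, and HIF-1 is known for shifting fuel use towards glycolysis.

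As general background, not stated in the labels or the study's methods, this null allele lacks exon 2, which encodes the start of the DNA-binding part of the protein. The exon is shown as the part that one allele of each Hif1a+/- mouse is missing. In transcript Hif1a-201 (GENCODE M21, GRCm38) it lies at chr12:73926557-73926747 on the plus strand and has 191 bases.
Hif1a exon 2: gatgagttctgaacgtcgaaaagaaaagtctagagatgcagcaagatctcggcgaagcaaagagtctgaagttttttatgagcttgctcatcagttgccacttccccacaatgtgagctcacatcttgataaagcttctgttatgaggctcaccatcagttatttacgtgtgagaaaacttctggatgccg
From the end of this exon 4112 bases of transcript remain, and 20.8 kb of genomic sequence to the end of the gene. The libraries were 3′-seq, which reads the end of the transcript, so a Hif1a count does not measure exon 2 and checks nothing about the deletion.

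Hif1a (chr12:73901375-73947530) had 894, 1253 and 1757 counts in the 3 Wt libraries and 2294, 1398 and 1769 in the 3 Hif1a+/- libraries. As CPM (counts scaled to one common library total by the trimmed mean of M-values), these were 55.6, 57.0 and 71.8 in Wt and 89.3, 78.7 and 88.9 in Hif1a+/-. All 3 Hif1a+/- values lay above all 3 Wt values. The means were 61.5 ± 9.0 (SD, n = 3) and 85.6 ± 6.03 (SD, n = 3), a ratio of 1.39, and edgeR's quasi-likelihood test gave a log2 fold change of 0.48 (SE 0.12, 95% interval 0.21 to 0.74). This value did not pass adjustment over all genes (edgeR adjusted p = 1.00), although it did when genes with few counts were kept in the fit (edgeR adjusted p = 0.0499). Without Wt replicate 25 that unfiltered fit no longer called Hif1a. In diabetic pregnancy, whose animals are separate, Hif1a was 47.9, 59.4 and 58.7 CPM in Wt and 70.5, 64.9 and 81.6 CPM in Hif1a+/-, a log2 fold change of 0.39 (SE 0.12, 95% interval 0.12 to 0.65) and no overlap. The difference between the 2 genotype effects was 0.09 (edgeR interaction test, 95% interval -0.28 to 0.47).

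**Figure D1:**
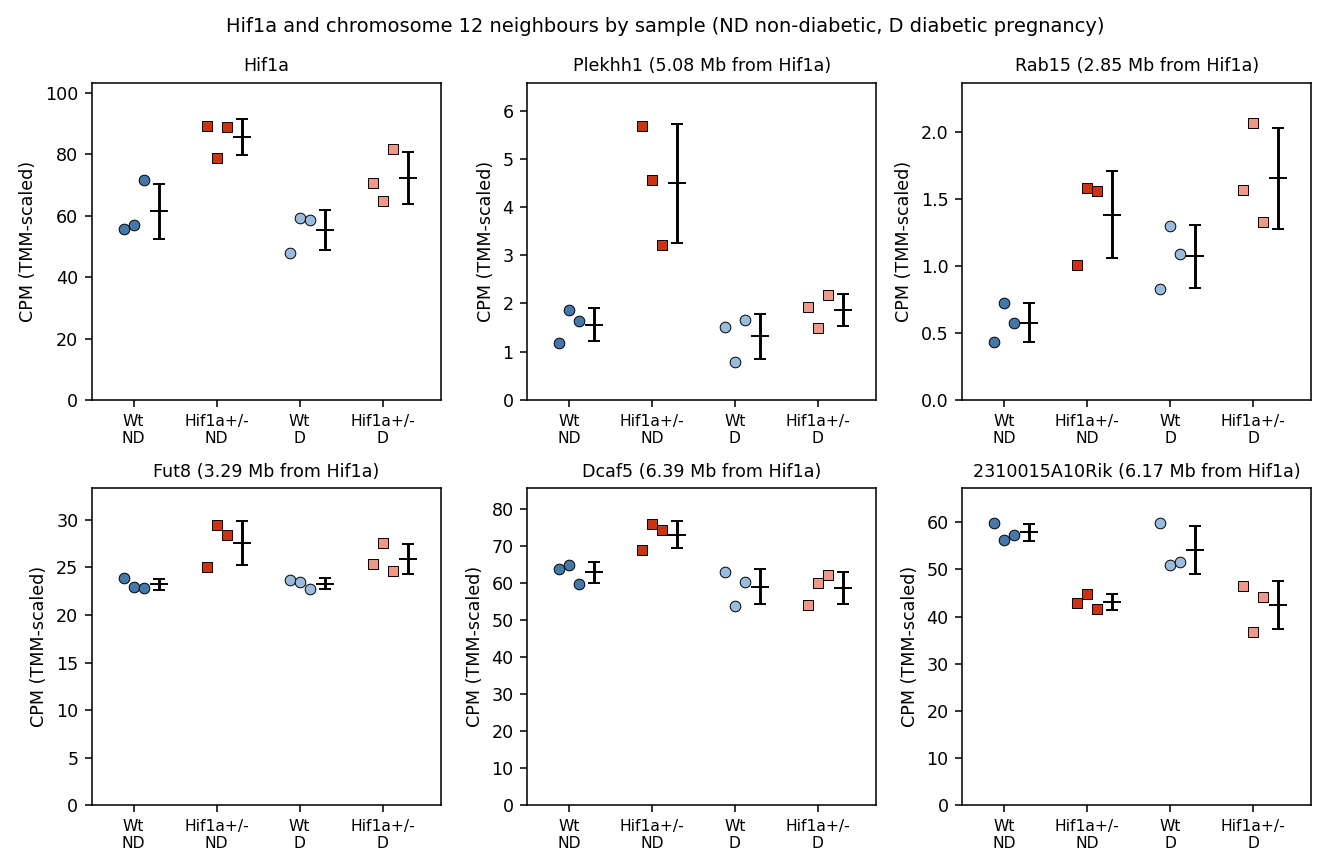
CPM of Hif1a and of the 5 genes within 10 Mb of it that had an unadjusted P under 0.05, plotted for each sample in the 4 groups, with points for samples and bars for the mean and SD (n = 3). In non-diabetic pregnancy the 3 Hif1a+/- points do not overlap the 3 Wt points for any of the 6 genes. They are higher for Hif1a, Plekhh1, Rab15, Fut8 and Dcaf5, and lower for 2310015A10Rik.

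Across the transcriptome, 0 of 14271 genes (0%) passed an adjusted p of 0.1 with edgeR, where the smallest adjusted p was 1.00. At an unadjusted P under 0.05 there were 135 genes (0.946%), of which 44 were higher (0.308%) and 91 lower (0.638%) in Hif1a+/-. This threshold alone gives a share of 0.05 when no gene differs, so 0.946% is a low background. A list share above it can still be near 0.05. limma-voom also called 0 genes, with 118 at an unadjusted P under 0.05 (0.827%). DESeq2 called 1 gene (0.00701%), Plekhh1, with 92 at an unadjusted P under 0.05 (0.645%). Groups that did not overlap were found for 671 genes (4.70%), 356 higher (2.49%) and 315 lower (2.21%). In the diabetic pregnancy samples the same fit gave 758 genes at an unadjusted P under 0.05 (5.31%) and 0 past the adjusted threshold with edgeR, while DESeq2 called 22. The median absolute log2 fold change between genotypes was 0.068 in non-diabetic and 0.115 in diabetic pregnancy. A test of the genotype by pregnancy interaction called 0 genes with edgeR, with 359 at an unadjusted P under 0.05 (2.52%), and 4 with DESeq2.

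The precision of these values can be read from their intervals. The median SE of a log2 fold change was 0.14. For 10131 genes (71.0%) the 95% interval lay within 1.5-fold in both directions, and for 12782 (89.6%) within 2-fold. Each SE and interval is from the edgeR fit, and an interval without 0 stands for an unadjusted P under 0.05. Every genotype difference given below for non-diabetic pregnancy had an edgeR adjusted p of 1.00, so none is an edgeR call. An interaction value contains the non-diabetic difference. For a gene named by that difference, the interaction interval is therefore not independent of the choice. The whole tissue was sequenced, so fewer cells of a type and less RNA per cell cannot be told apart.

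**Figure D2:**
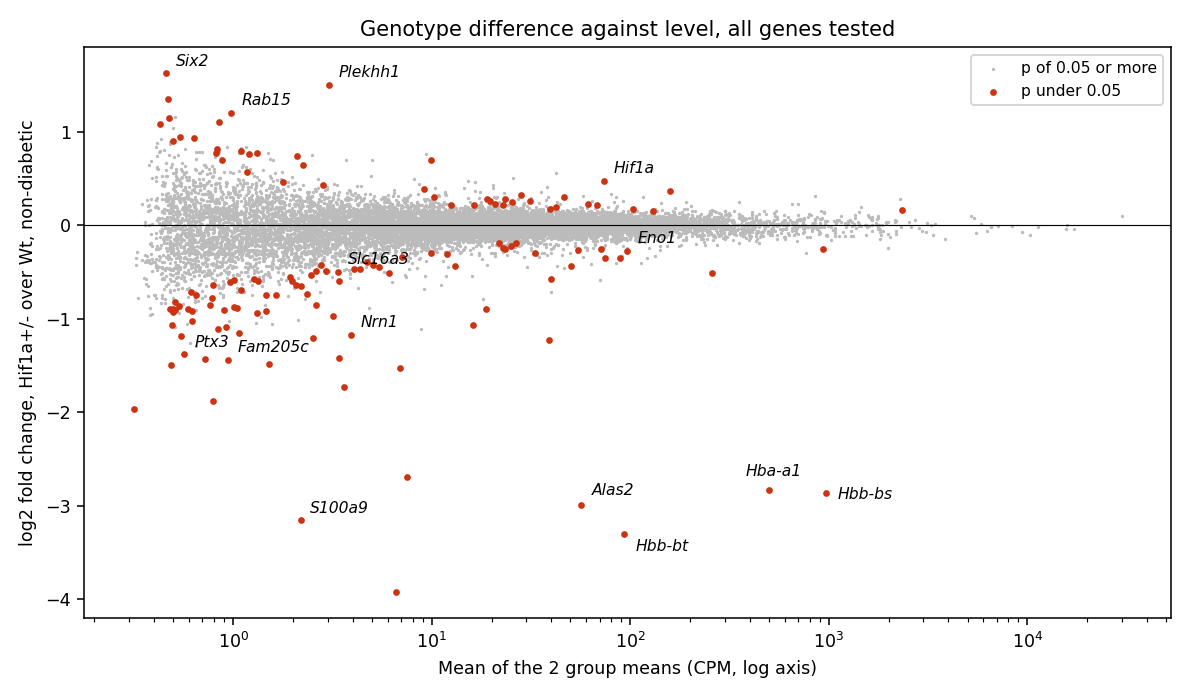
Log2 fold change of Hif1a+/- over Wt in non-diabetic pregnancy against the mean CPM on a log axis, with 1 point for each of the 14271 genes tested in red where the unadjusted P was under 0.05, and some leading genes named. Most genes lie close to 0, and the spread is widest among genes with few counts.

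The total count was 16132442 to 24377534 in the Wt and 18010492 to 24554806 in the Hif1a+/- libraries. Heart muscle markers were abundant in all 6, with a summed level of 47623 to 51041 CPM for 5 cardiomyocyte markers. Of 5 atrial markers 4 were tested, and the other, Bmp10, had at most 2 counts. Nppa was 42.4 to 65.1 CPM. All 4 were higher in Hif1a+/-, with a median log2 fold change of 0.430 and 0 at an unadjusted P under 0.05. Hif1a+/- replicate 32 had the most counts of Myl7 (83), Myl4 (186) and Sln (49). The other 5 libraries had 13 to 53, 61 to 123 and 2 to 19. Female sex is stated in the labels, whereas the paper says in its results that males only were used after the echocardiography. All 6 libraries had Ddx3y, a Y chromosome gene, at 86.6 to 110 CPM and Xist, the RNA of the inactive X, at 0.777 to 2.46 CPM. Wt replicate 25 stood apart in blood genes. The summed level of the 4 tested red cell markers was 7317 CPM in it, 491 and 705 CPM in Wt replicates 42 and 89, and 361 to 413 CPM in Hif1a+/-. It also had the largest share of reads aligned to several places, 17.02%, against 12.37% to 13.58% in the other 5. Several list medians, and the values of some genes, are given both with and without this library.

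Plekhh1, whose product has pleckstrin homology and FERM domains, was the gene with the smallest P, and lies 5.08 Mb from Hif1a on chromosome 12 (chr12:79029163-79081655). It was 1.18, 1.86 and 1.64 CPM in Wt and 5.69, 4.56 and 3.22 CPM in Hif1a+/-. Every Hif1a+/- value was above every Wt value, and the means of 1.56 ± 0.347 and 4.49 ± 1.24 CPM (SD, n = 3) differed 2.88-fold. The log2 fold change was 1.51 (SE 0.30, 95% interval 0.87 to 2.15), and DESeq2 gave an adjusted p of 0.0494. The DESeq2 call was present without Wt replicate 42 or Hif1a+/- replicate 44 and absent without each of the other 4 libraries. In diabetic pregnancy the level was 1.52, 0.784 and 1.66 CPM in Wt and 1.93, 1.5 and 2.17 CPM in Hif1a+/-, with overlapping groups and a log2 fold change of 0.53 (95% interval -0.14 to 1.21). The interaction test gave 0.98 (95% interval 0.05 to 1.90), which did not pass adjustment, the smallest edgeR adjusted p of that test being 0.998.

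Plekhh1 was not the only neighbour of Hif1a among the leading genes. Of the 105 tested genes within 10 Mb of Hif1a, Hif1a included, 6 (5.71%) had an unadjusted P under 0.05, against 0.946% of all genes tested, and 5 of these were higher. The 5.71% is near the share of 0.05 that the threshold alone gives when no gene differs. Groups did not overlap for 9 of the 105 (8.57%), 7 higher and 2 lower, against 4.70% of all genes. The median log2 fold change of the 105 was 0.021 and that of all genes 0.001. By distance, 0 of 24 neighbours within 2.5 Mb had a P under 0.05, 2 of 40 between 2.5 and 5 Mb, 3 of 40 between 5 and 10 Mb, 2 of 90 between 10 and 20 Mb, and 1 of 279 (0.358%) farther away on chromosome 12. In the separate animals of diabetic pregnancy, 13 of the 105 (12.4%) had a P under 0.05, against 5.31% of all genes. The null allele is a targeted allele carried on the FVB background, and an effect of the allele and one of sequence linked to it on chromosome 12 cannot be told apart in these samples.

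Rab15, a small GTPase of endosomal recycling, lies 2.85 Mb from Hif1a. It was 0.436, 0.727 and 0.572 CPM in Wt and 1.01, 1.58 and 1.56 CPM in Hif1a+/-, a log2 fold change of 1.21 (SE 0.31, 95% interval 0.53 to 1.89), and 0.61 (95% interval 0.01 to 1.21) in diabetic pregnancy, or 0.44 with a P above 0.05 without diabetic Hif1a+/- replicate 72. Fut8, the enzyme that adds core fucose to N-glycans, lies 3.29 Mb away and was 23.9, 22.9 and 22.8 CPM in Wt against 25.0, 29.4 and 28.4 CPM in Hif1a+/- (log2 fold change 0.25, SE 0.09, 95% interval 0.06 to 0.44). For both genes all 3 Hif1a+/- libraries lay above all 3 Wt libraries, Fut8 by a narrow margin. Rab15 rested on few reads, with 7, 16 and 14 counts in Wt and 26, 28 and 31 in Hif1a+/-. Dcaf5, a substrate adaptor of an E3 ubiquitin ligase at 6.39 Mb, was 63.8, 65.0 and 59.8 CPM against 68.9, 75.9 and 74.2 CPM (log2 fold change 0.22, 95% interval 0.03 to 0.40), and its value in diabetic pregnancy was -0.01.

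The non-coding transcript 2310015A10Rik (chr12:80120546-80132844, 6.17 Mb away) was the 1 gene of these 6 with a lower level. It was 59.9, 56.3 and 57.3 CPM in Wt and 42.8, 44.8 and 41.5 CPM in Hif1a+/-. The groups were well apart, and the log2 fold change was -0.43 (SE 0.10, 95% interval -0.64 to -0.21). In diabetic pregnancy it was 59.9, 50.9 and 51.5 CPM in Wt and 46.4, 36.8 and 44.1 CPM in Hif1a+/- (log2 fold change -0.35, 95% interval -0.56 to -0.14), again without overlap. Farther out, Vash1, which encodes the angiogenesis inhibitor vasohibin, at 12.73 Mb, was 6.66, 9.18 and 6.79 CPM in Wt and 11.5, 12.2 and 13.2 CPM in Hif1a+/- (log2 fold change 0.70, SE 0.23, 95% interval 0.20 to 1.20), but 0.17 (95% interval -0.33 to 0.67) in diabetic pregnancy.

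**Figure D3:**
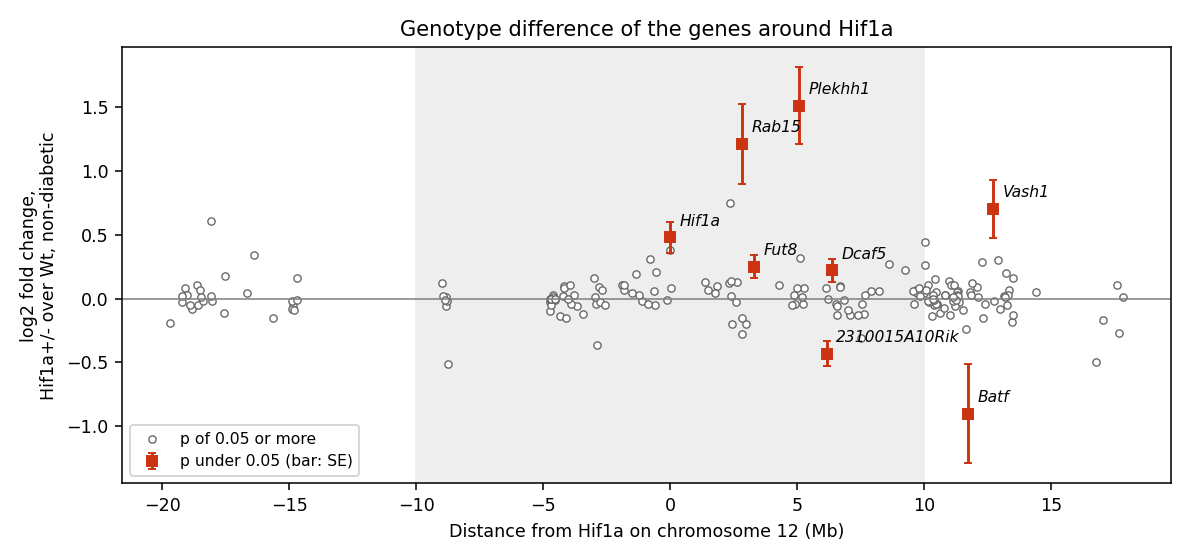
Log2 fold change of Hif1a+/- over Wt in non-diabetic pregnancy against the distance from Hif1a in Mb, for tested chromosome 12 genes up to 20 Mb away, with the band within 10 Mb in grey. Genes with an unadjusted P under 0.05 are red with bars for the SE; 6 of the 105 genes in the band are red, and Plekhh1 lies highest at 1.51.

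Among the 10 genes with the smallest P that were higher in Hif1a+/- were 4 on chromosome 12 besides Hif1a itself: Plekhh1, Rab15, Fut8 and Vash1. The other 5 were Six2, Eps8l1, Rarg, Zfp442 and Dok5. Rarg, a retinoic acid receptor, was 25.1, 26.2 and 23.7 CPM in Wt and 32.4, 30.5 and 31.5 CPM in Hif1a+/- (log2 fold change 0.33, SE 0.10, 95% interval 0.11 to 0.55), and 0.02 in diabetic pregnancy. Zfp442, a zinc finger gene of a large family with similar members, was 1.87, 1.59 and 1.76 against 2.84, 3.04 and 2.31 CPM, a log2 fold change of 0.65 (95% interval 0.22 to 1.09), and -0.27 (95% interval -0.71 to 0.18) in diabetic pregnancy. Six2, a homeobox factor of organ development, had 2, 6 and 6 counts in Wt and 15, 12 and 17 in Hif1a+/- (log2 fold change 1.63, 95% interval 0.65 to 2.62, and 1.08 with 95% interval 0.26 to 1.90 in diabetic pregnancy).

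Eps8l1, related to a regulator of the actin cytoskeleton, had 6 counts in each Wt library and 14, 11 and 16 in Hif1a+/- (log2 fold change 1.15, 95% interval 0.45 to 1.85, and 1.02 with 95% interval 0.31 to 1.73 in diabetic pregnancy). Dok5, an adaptor of receptor tyrosine kinases, had 4, 7 and 6 counts against 14, 11 and 12 (log2 fold change 1.09, 95% interval 0.23 to 1.96, and -0.35 with 95% interval -1.09 to 0.39). These low genes need a caution. Of the 20 leading genes, 4 (Six2, Eps8l1, Dok5 and Ptx3) reached 10 counts in all 3 samples of 1 group and in none of the other, so the count minimum admitted them only through the group where they were high.

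Of the 10 genes with the smallest P that were lower, Ptx3 led. It encodes pentraxin 3, a soluble pattern recognition molecule made at sites of inflammation. It had 12, 19 and 21 counts in Wt and 9, 6 and 5 in Hif1a+/-, or 0.747, 0.864 and 0.859 against 0.351, 0.338 and 0.251 CPM, which is a log2 fold change of -1.38 (SE 0.30, 95% interval -2.03 to -0.72). In diabetic pregnancy the value was 0.57 (95% interval -0.03 to 1.17), and the interaction test gave -1.95 (95% interval -2.84 to -1.06, edgeR adjusted p = 0.998). Lmcd1, a LIM domain protein of muscle, was also lower, at a far higher level, with 79.4, 74.0 and 79.7 CPM in Wt and 62.0, 67.8 and 66.6 CPM in Hif1a+/- (log2 fold change -0.25, SE 0.08, 95% interval -0.41 to -0.08), against 0.16 in diabetic pregnancy (interaction -0.41, 95% interval -0.64 to -0.18). Ptx3 and Lmcd1 were both named by the non-diabetic difference, and neither interaction passed adjustment.

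Nrn1, Ptchd3 and Fam205c were lower with a P under 0.05 in both pregnancies. Nrn1, which encodes neuritin, was 4.73, 6.14 and 5.36 CPM in Wt and 2.06, 2.70 and 2.51 CPM in Hif1a+/- (log2 fold change -1.17, SE 0.35, 95% interval -1.92 to -0.42), and -1.36 (95% interval -2.09 to -0.63) in diabetic pregnancy. Ptchd3, of the patched domain family, was 3.24, 4.14 and 3.15 against 1.17, 1.35 and 2.06 CPM (log2 fold change -1.21, 95% interval -1.85 to -0.56), and -0.97 (95% interval -1.61 to -0.33). Fam205c was 1.99, 1.05 and 1.14 against 0.584, 0.450 and 0.452 CPM (log2 fold change -1.44, 95% interval -2.24 to -0.63), and -0.79 (95% interval -1.54 to -0.04), or -0.81 with a P above 0.05 without diabetic Hif1a+/- replicate 72. For all 3 genes the lowest Wt library lay above the highest Hif1a+/- library.

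The remaining lower genes included Eno1, described with glycolysis, and the blood genes S100a9, Hba-a1 and Hbb-bs. The alpha globin gene Hba-a1 was 2235 CPM in Wt replicate 25 and 163 and 223 CPM in the 2 other Wt libraries. S100a9, a neutrophil protein, was 10.2, 0.455 and 1.23 CPM in Wt and 0.623, 0.394 and 0.201 CPM in Hif1a+/-. Most of the size of these differences came from this Wt library. Without it the log2 fold change went from -3.16 to -1.01 (SE 0.58) for S100a9 and from -2.99 to -0.51 (SE 0.61) for Alas2, the enzyme that starts haem synthesis in red cells. Of 5 red cell markers 4 were tested. All 4 had a P under 0.05 with this library (against 0.946% of all genes) and 0 without it, the median log2 fold change moving from -2.929 to -0.636. All 4 were still lower without overlap when it was left out. With only 2 Wt libraries this was easier to meet: 896 of all 14271 genes were lower without overlap, against 315 with Wt replicate 25 included. Hba-a2 had 14, 0 and 2 counts in Wt and 0, 2 and 1 in Hif1a+/-, and shares sequence with Hba-a1, so these 2 cannot be separated reliably. Of 4 neutrophil markers only S100a9 was tested; S100a8 had 102 counts in Wt replicate 25 and 2 to 22 in the other 5 libraries, and Ly6g had 0 counts in all 6.

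**Figure D4:**
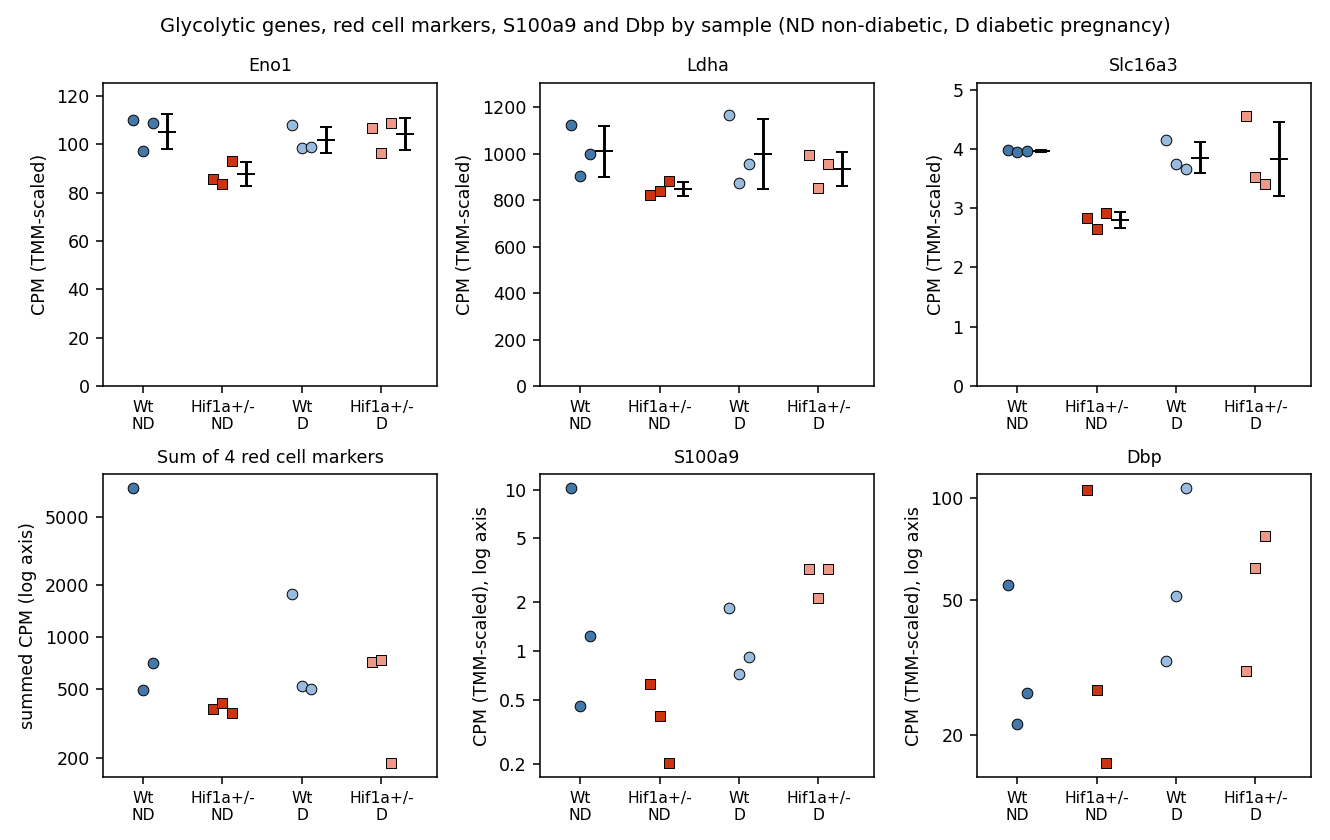
CPM per sample in the 4 groups for Eno1, Ldha and Slc16a3 (linear axes from 0, with bars for the mean and SD, n = 3), and for the sum of 4 red cell markers, S100a9 and Dbp (log axes, points only). Wt replicate 25 lies alone at 7317 CPM for the red cell sum and at 10.2 CPM for S100a9. In non-diabetic pregnancy all 3 Wt libraries lie above all 3 Hif1a+/- libraries for Eno1, Ldha and Slc16a3.

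The 20 leading genes and the 135 genes with a P under 0.05 were looked up in the 6 diabetic pregnancy animals, whose levels were not compared in choosing them, although all 12 samples shared the estimate of the spread behind the P values. Of the 20, 14 (70.0%) had the same sign there, 7 of them with a P under 0.05, and 0 had the opposite sign with a P under 0.05. Leaving out the 4 genes that the count minimum admitted through 1 group, 12 of 16 (75%) had the same sign, 5 with a P under 0.05. Of the 135, 83 (61.5%) had the same sign, 12 with a P under 0.05, and 3 had a P under 0.05 in the opposite direction. Of all 14271 genes, 6751 (47.3%) had the same sign. Diabetic Hif1a+/- replicate 72 had 3599 counts of Xist and 8 of Ddx3y, where the other 11 libraries had 5 to 176 and 1539 to 3108, so it was the 1 library with almost no Y chromosome signal. Without it the counts were 13 (65.0%) of the 20, with 5 at a P under 0.05, and 82 (60.7%) of the 135. Of the 135, 10 then had a P under 0.05 with the same sign and 5 with the opposite sign. Of all genes, 6928 (48.5%) had the same sign without that library.

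In the HIF pathway itself no gene but Hif1a stood out. All 10 listed subunits and hydroxylases were tested, and Hif1a was the 1 gene with a P under 0.05 (10%, against 0.946% of all genes). The median was 0.028, or 0.142 without Wt replicate 25. Epas1, which encodes the alpha subunit HIF-2 alpha, was 472, 395 and 333 CPM in Wt and 424, 441 and 401 CPM in Hif1a+/- (log2 fold change 0.08, 95% interval -0.20 to 0.36). Arnt, the partner subunit, was 53.8, 57.2 and 48.3 against 53.0, 59.4 and 54.7 CPM (0.07, 95% interval -0.14 to 0.28). The groups overlapped for both genes. Its paralog Arnt2 was low, at 0.311, 0.409 and 0.736 against 1.09, 0.788 and 0.704 CPM, with a log2 fold change of 0.79 (95% interval -0.05 to 1.62) here and 0.94 (95% interval 0.11 to 1.77) in diabetic pregnancy. The hydroxylase genes had log2 fold changes of -0.01 for Egln1, -0.03 for Egln2, -0.19 for Egln3 and 0.10 for Hif1an, and Vhl had -0.05. The 95% interval was -0.26 to 0.24 for Egln1 and -0.86 to 0.49 for Egln3, whose Wt libraries ranged from 284 to 521 CPM.

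For glycolysis, the process most often tied to HIF-1, most genes had a lower level in Hif1a+/-, by small amounts. Of 22 listed genes 21 were tested, of which 17 had a negative log2 fold change and 4 a positive value. The median was -0.111, against 0.001 over all genes, and -0.108 in diabetic pregnancy. A P under 0.05 was reached by 3 genes, all lower (14.3%, against 0.946% of all genes), namely Eno1, Slc16a3 and Ldha, and 5 genes were lower without overlap (23.8%, against 2.21%), the others being Pfkp and Gapdh. Without Wt replicate 25, 16 of 21 were lower, 2 with a P under 0.05 (9.52%, against 0.925% of all genes), and the median was -0.090. The summed level of the list was 15190, 13351 and 14798 CPM in Wt and 12732, 13231 and 13670 CPM in Hif1a+/-, so the highest Hif1a+/- library lay above the lowest Wt library.

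Eno1, the enolase of the later glycolytic steps, was 110, 97.1 and 109 CPM in Wt and 85.9, 83.8 and 93.3 CPM in Hif1a+/- (log2 fold change -0.27, SE 0.08, 95% interval -0.45 to -0.09). In diabetic pregnancy it was 0.03, and the interaction test gave -0.30 (95% interval -0.55 to -0.04). Slc16a3, the monocarboxylate transporter that exports lactate, was 3.98, 3.95 and 3.97 CPM in Wt and 2.84, 2.65 and 2.91 CPM in Hif1a+/-. Within each group these values were nearly equal, but they rested on 64, 87 and 97 counts in Wt and 73, 47 and 58 in Hif1a+/-. The log2 fold change was -0.50 (SE 0.16, 95% interval -0.85 to -0.15), with an interaction of -0.50 (95% interval -0.98 to -0.01). Eno1 and Slc16a3 were both named by the non-diabetic difference, and neither interaction passed adjustment. Ldha, the lactate dehydrogenase subunit that favours lactate formation, was 1126, 906 and 1001 CPM against 823, 842 and 883 CPM (log2 fold change -0.25, 95% interval -0.50 to -0.00). The highest Ldha value was in Wt replicate 25, and without it the log2 fold change was -0.17 (SE 0.12), while Eno1 had -0.24 (SE 0.09). The part that blood in that library had in the Ldha value was not tested.

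Other steps of the pathway had intervals that held 0. Gapdh was 2215, 2009 and 2213 CPM in Wt and 1666, 1797 and 1996 CPM in Hif1a+/- (log2 fold change -0.24, 95% interval -0.49 to 0.01), and Pfkp, a phosphofructokinase, was 118, 90.4 and 94.0 against 80.3, 76.2 and 84.1 CPM (-0.33, 95% interval -0.68 to 0.02). Log2 fold changes were -0.15 for the aldolase Aldoa, -0.16 for Tpi1, -0.11 for Pgk1 and -0.10 for Pkm, all with overlapping groups. The glucose transporters Slc2a1 and Slc2a4 had -0.21 (95% interval -0.57 to 0.16) and -0.05 (95% interval -0.22 to 0.12), and Hk2 and Pdk1 had 0.04 and 0.02. Several of these genes, such as Gapdh, Eno1 and Ldha, have processed pseudogenes, and reads aligned to several places were not counted.

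HIF-1 binds the core motif ACGTG or GCGTG, so the promoters of the 3 glycolysis genes with a P under 0.05 are shown with each match on either strand in capitals. Each is the 250 bases before the most upstream RefSeq start of the gene (GRCm38.p6), on the plus strand, at chr4:150236458-150236707 for Eno1, chr7:46845554-46845803 for Ldha and chr11:120948817-120949066 for Slc16a3.
Eno1: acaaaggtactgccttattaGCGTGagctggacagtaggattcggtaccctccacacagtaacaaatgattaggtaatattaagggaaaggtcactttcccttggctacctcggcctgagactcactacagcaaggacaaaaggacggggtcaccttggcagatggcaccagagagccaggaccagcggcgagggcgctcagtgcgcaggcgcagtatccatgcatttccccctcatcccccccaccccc
Ldha: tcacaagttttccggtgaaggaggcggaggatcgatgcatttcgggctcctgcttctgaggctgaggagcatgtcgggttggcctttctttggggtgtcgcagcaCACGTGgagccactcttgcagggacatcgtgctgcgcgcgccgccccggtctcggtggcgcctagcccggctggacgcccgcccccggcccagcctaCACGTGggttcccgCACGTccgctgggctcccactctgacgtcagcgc
Slc16a3: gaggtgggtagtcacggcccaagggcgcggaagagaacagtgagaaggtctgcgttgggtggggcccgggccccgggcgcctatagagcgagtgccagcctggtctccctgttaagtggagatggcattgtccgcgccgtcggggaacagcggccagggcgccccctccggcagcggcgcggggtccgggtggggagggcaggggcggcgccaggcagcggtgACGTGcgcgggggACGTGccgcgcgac
The Eno1 window held 1 GCGTG, the Slc16a3 window 2 ACGTG, and the Ldha window 5 matches of ACGTG counted over both strands, of which the palindrome CACGTG gives a match on each strand. Of 20 glycolysis list genes with a promoter in the RefSeq table, 15 (75%) held either motif, 8 (40%) ACGTG and 9 (45%) GCGTG. The shares were 55.9%, 21.6% and 44.7% among the promoters of the 10658 tested genes in the table, and 38.6%, 16.6% and 28.2% among all 32851 promoters there. A match is a run of letters and was not measured as a binding site.

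Other genes known to be induced by hypoxia had small differences as well. Of 32 listed, 30 were tested, 1 was lower with a P under 0.05 (3.33%, against 0.946% of all genes), and the median was -0.052, or -0.010 without Wt replicate 25. That gene was Mif, a cytokine, with 95.9, 64.1 and 92.4 CPM in Wt and 65.4, 63.2 and 69.0 CPM in Hif1a+/- (log2 fold change -0.35, 95% interval -0.64 to -0.06). The groups overlapped, and without Wt replicate 25 the value was -0.25 (SE 0.14). The mitophagy receptor gene Bnip3 was 270, 177 and 239 CPM against 211, 208 and 179 CPM (-0.20, 95% interval -0.57 to 0.17). Vegfa, the main angiogenic ligand, varied widely within each group, at 496, 591 and 287 CPM in Wt and 284, 395 and 564 CPM in Hif1a+/- (-0.14, 95% interval -0.84 to 0.56). Its receptors Kdr and Flt1 had -0.01 (95% interval -0.47 to 0.44) and 0.02 (95% interval -0.43 to 0.46). None of the 14 tested VEGF and angiopoietin genes had a P under 0.05 with edgeR.

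Genes of oxidative metabolism differed by little in either direction. Of 31 fatty acid uptake and oxidation genes, 25 had a positive log2 fold change and 0 a P under 0.05 with edgeR, with a median of 0.084, or 0.052 without Wt replicate 25, and -0.064 in diabetic pregnancy. Acadm, the medium-chain acyl-CoA dehydrogenase, was 1477, 1650 and 1681 CPM in Wt and 1587, 1795 and 1743 CPM in Hif1a+/- (0.09, 95% interval -0.11 to 0.29), and the fatty acid transporter Cd36 had -0.02 (95% interval -0.26 to 0.22). Of 54 respiratory chain and ATP synthase subunits 50 had a negative value, but all lay between -0.13 and 0.03 with a median of -0.057, 0 had a P under 0.05, and all 54 intervals lay within 1.5-fold.

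Contractile genes had small differences. Of 21 sarcomere and Z-disc genes 0 had a P under 0.05 with edgeR, and the median log2 fold change was 0.011. Myh6, the main adult myosin heavy chain, was 31028, 29165 and 26396 CPM in Wt and 31426, 31196 and 30208 CPM in Hif1a+/- (0.10, 95% interval -0.10 to 0.30). Its fetal counterpart Myh7 had 0.14 (95% interval -0.12 to 0.41). Among 11 cardiac stress and fetal programme genes 9 were higher and 0 had a P under 0.05, with a median of 0.105 that was -0.007 without Wt replicate 25. Ankrd1, a stretch-responsive cofactor, was 1540, 2180 and 2480 CPM in Wt and 2490, 2512 and 2505 CPM in Hif1a+/- (0.28, 95% interval -0.14 to 0.70), and Nppb, the B-type natriuretic peptide, was 213, 441 and 317 against 178, 442 and 538 CPM (0.25, 95% interval -0.61 to 1.12).

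Of 30 calcium handling and channel genes 1 had a P under 0.05 (3.33%, against 0.946% of all genes), Hcn2, a pacemaker current channel. It was 59.9, 49.6 and 60.4 CPM in Wt and 68.4, 65.4 and 66.0 CPM in Hif1a+/- (log2 fold change 0.23, 95% interval 0.03 to 0.44), and 0.16 (95% interval -0.05 to 0.37) in diabetic pregnancy. The calcium pump gene Atp2a2 was -0.00 (95% interval -0.22 to 0.21) and the release channel gene Ryr2 was 0.07 (95% interval -0.35 to 0.49).

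**Figure D5:**
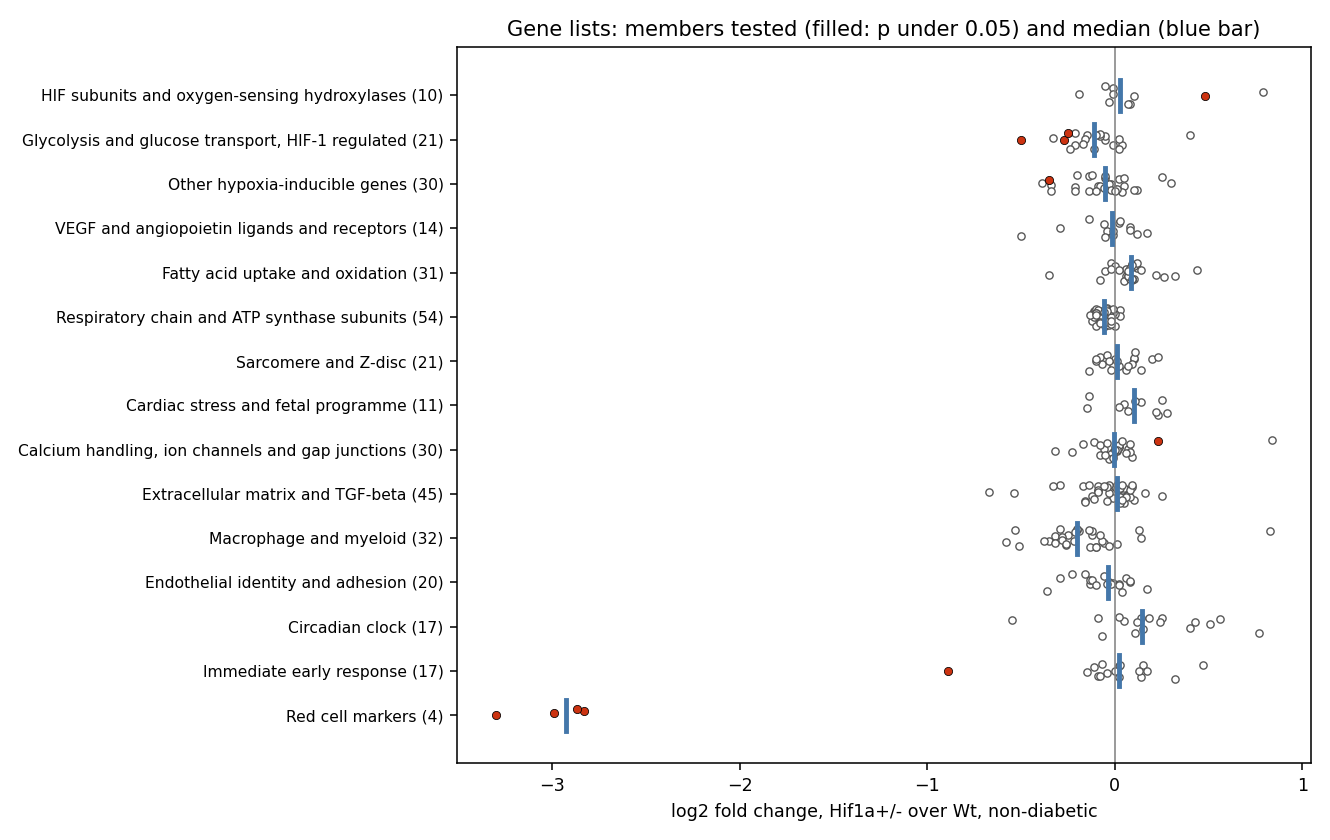
Log2 fold change of Hif1a+/- over Wt in non-diabetic pregnancy for the tested members of 15 gene lists, with 1 point per gene and a bar at each median. The medians of 14 lists lie between -0.199 (macrophage and myeloid) and 0.146 (circadian clock), and that of the red cell markers is -2.929, or -0.636 without Wt replicate 25.

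Of 45 extracellular matrix and TGF-beta genes 0 had a P under 0.05 with edgeR, 24 were higher and 21 lower, and the median was 0.010. Without Wt replicate 25 the direction turned, with 11 higher and 34 lower and a median of -0.071. There 1 gene was lower with a P under 0.05 (2.22%, against 0.925% of all genes). In diabetic pregnancy 17 of 45 (37.8%, against 5.31% of all genes) had a P under 0.05 and the median was 0.258. Of 32 macrophage and myeloid genes 28 had a negative log2 fold change, 0 a P under 0.05 with edgeR and 3 non-overlapping groups, all lower (9.38%, against 2.21% of all genes). Their median was -0.199 here (-0.261 without Wt replicate 25) and 0.476 in diabetic pregnancy. The summed level of the list was 583 to 763 CPM in Wt and 458 to 634 CPM in Hif1a+/-.

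The 3 genes were Cfp, Ccl2 and Ccl7. Cfp, which encodes the complement factor properdin, was 9.09, 9.91 and 8.38 CPM in Wt and 7.36, 6.14 and 8.34 CPM in Hif1a+/- (log2 fold change -0.32, 95% interval -0.67 to 0.02), against 0.52 (95% interval 0.19 to 0.85) in diabetic pregnancy and an interaction of -0.84 (95% interval -1.32 to -0.36, not past adjustment). The monocyte chemokine Ccl2 was 3.48, 4.14 and 2.74 against 2.22, 2.36 and 2.66 CPM (-0.51, 95% interval -1.11 to 0.08), 0.97 (95% interval 0.39 to 1.54) in diabetic pregnancy, with an interaction of -1.48 (95% interval -2.31 to -0.65). Icam1, the endothelial adhesion molecule for leukocytes, followed the same pattern with 25.8, 17.1 and 17.5 against 14.8, 15.9 and 15.9 CPM (-0.36, 95% interval -0.75 to 0.02), 0.41 (95% interval 0.03 to 0.79) and -0.77 (95% interval -1.32 to -0.23). The highest Icam1 value was in Wt replicate 25, without which the log2 fold change was -0.15. Of 20 tested endothelial identity and adhesion genes 0 had a P under 0.05 with edgeR, and the median was -0.035. Markers of the other cell types of the LV had medians of 0.043 for endothelial cells, -0.091 for fibroblasts, 0.032 for smooth muscle and pericytes and -0.119 for macrophages, with 0 genes at a P under 0.05 in these 4 lists. Without Wt replicate 25 all 7 macrophage markers were lower with a median of -0.269. All 5 fibroblast markers were lower with a median of -0.171, 1 of them with a P under 0.05 (20%, against 0.925% of all genes). Of 4 tested Schwann cell markers 1 was lower with a P under 0.05 (25%, against 0.946% of all genes), and the median was -0.326. Without that library these were 0 and -0.199. None of these 3 interaction values passed adjustment (edgeR adjusted p = 0.998).

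A list of 17 genes was taken over as named in the study for non-diabetic Hif1a+/-. It was chosen on these same samples, so it is not independent evidence of direction. Of its genes 15 were tested, and 6 had a P under 0.05 (40%, against 0.946% of all genes). These were Hif1a, Plekhh1, Rab15 and Zfp442 as higher and Nrn1 and Ptchd3 as lower. Kap and Fmr1nb were below the count minimum, with 1, 3 and 5 against 1, 23 and 5 counts for Kap and 6, 11 and 25 against 6, 2 and 2 counts for Fmr1nb. Of the others, Olfr78, an olfactory receptor, was 2.49, 3.05 and 1.64 against 1.64, 1.24 and 1.31 CPM (log2 fold change -0.76, 95% interval -1.59 to 0.07), and Ackr2, a decoy receptor for chemokines, was 7.65, 3.41 and 4.74 against 3.58, 3.83 and 2.41 CPM (-0.67, 95% interval -1.56 to 0.23). Duoxa1, a maturation factor of a peroxide-forming oxidase, was 1.06, 1.41 and 1.31 against 1.71, 1.74 and 1.51 CPM, higher without overlap (0.38, 95% interval -0.42 to 1.18). Of 18 genes that had also been measured by RT-qPCR, Ldha was the 1 gene with a P under 0.05 (5.56%, against 0.946% of all genes), and 3 were lower without overlap (16.7%, against 2.21%), Ldha, Cfp and Icam1.

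Of 17 circadian clock genes 14 were higher, 0 had a P under 0.05 with edgeR, and the median was 0.146. Without Wt replicate 25 the median was 0.302, and 1 gene was higher with a P under 0.05 (5.88%, against 0.925% of all genes). Dbp, an output gene of the clock, was 55.4, 21.5 and 26.6 CPM in Wt and 106, 27.2 and 16.5 CPM in Hif1a+/-, and Ciart was 14.6, 2.86 and 3.84 against 28.2, 3.10 and 3.32 CPM. Wt replicate 25 and Hif1a+/- replicate 14 were the 2 high libraries for both genes. Arntl, a core activator of the clock, was low in the same 2 libraries, with 135, 370 and 529 counts in Wt and 138, 339 and 404 in Hif1a+/-. Among 17 tested immediate early genes 1 had a P under 0.05 (5.88%, against 0.946% of all genes), Nr4a1, a nuclear receptor induced within minutes by many stimuli. It was 27.6, 17.7 and 27.6 CPM in Wt and 12.1, 6.92 and 20.3 CPM in Hif1a+/- (log2 fold change -0.89, 95% interval -1.73 to -0.05), and -1.36 (95% interval -2.21 to -0.52) in diabetic pregnancy. The groups overlapped in non-diabetic pregnancy, and without Wt replicate 25 the value was -0.79 (SE 0.44). The median of the immediate early list was 0.021 (10 higher, 7 lower), or -0.112 (4 higher, 13 lower) without that library.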

How the data were processed

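The authors made 3′-seq libraries from LV RNA of 12 offspring, 3 per group. Per their methods, reads were trimmed with Trimmomatic, cleared of ribosomal and mitochondrial reads, aligned to GRCm38 with STAR 2.5.2b and counted with htseq-count. As deposited, counts are unnormalized whole numbers, 1 sample per file; the normalized files were not used here. Groups and animal numbers came from the labels.

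Genes with 10 or more counts in at least 3 of the 6 non-diabetic samples were fitted with edgeR 4.0.16 (R 4.3.3; TMM, quasi-likelihood test, 1 mean per group over 12 samples, 8 residual degrees of freedom), with Benjamini-Hochberg adjustment and the study's threshold of 0.1. Alternatives were DESeq2 1.42.0, limma-voom (limma 3.58.1), other filters, scalings and sample sets, and each replicate left out. edgeR estimated a biological coefficient of variation of 13.6%, and 11.9% in a fit of the 6 non-diabetic samples only. That fit gave 0 calls and 171 genes at an unadjusted P under 0.05 (1.20%). Totals per sample ran from 16132442 to 39812939 counts, and genes with few counts had the widest spread. The scripts were tested on simulated data. Reads of replicates differed beyond sampling noise in every pair (chi-square per gene 5.36 or more). Symbols came from GENCODE M21 (46488 genes) and promoters from RefSeq.

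The genes compared, the lists and the tests were chosen with earlier results of these data known. Named genes were the HIF list, the 10 smallest P in each direction (predicted gene models left out), the 3 smallest P and the most counted members of each list, genes the study listed or measured by RT-qPCR, genes within 10 Mb of Hif1a with a P under 0.05, and genes past an adjusted threshold in any tool. Of the genes under this rule, 1 is left out of the text.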

Additional observations from a re-analysis of the deposited data

How the results depend on the processing

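The 0 calls of edgeR in non-diabetic pregnancy became 1 with DESeq2 (Plekhh1) and 33 (3 higher, 30 lower) with no filter beyond 1 count, a set led by globin and other blood genes. With no filter and without Wt replicate 25, the number was 27 (9 higher, 18 lower), Ciart, Dbp, Nrn1, Nr4a1 and Plekhh1 among them. Leaving out each replicate gave 0 to 0 calls with edgeR, with 96 to 211 genes at an unadjusted P under 0.05, and 0 to 3 with DESeq2. The 3 came without Wt replicate 42 (S100a9, Mif and Plekhh1), 1 without Hif1a+/- replicate 44 (Plekhh1), and 0 without each of the others. With no filter Hif1a kept a log2 fold change of 0.48 and passed the threshold (edgeR adjusted p = 0.0499). It was not called with Wt replicate 25 left out as well. In the filtered fit, without each replicate, its log2 fold change was 0.41 to 0.61. The 6 chromosome 12 genes with a P under 0.05 became 3 within 5 Mb and 8 within 20 Mb, and 5 to 9 without each replicate. In diabetic pregnancy 0 calls became 22 with DESeq2 and 220 with no filter, and for the interaction 4 and 78. The cause of these changes was not tested.

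For 21 leading genes, 0 of 308 values under the alternatives had another sign. These were the 20 leading genes without Hif1a, plus Dcaf5 and 2310015A10Rik. They were chosen by a small P in the same samples, so a kept sign is not independent evidence of direction. For 143 named genes other than Hif1a, 132 of 2131 values did, in 61 genes. The DESeq2 fits without each replicate, the fits without Wt replicate 25 for the lists and for the unfiltered genes, and those without diabetic Hif1a+/- replicate 72 were added after the data had been seen. No paired analysis was possible because the animal numbers in the titles are not shared between groups. With 3 animals per group from several litters, litter could not be entered in any fit, and the median SE of 0.14 on the log2 scale limited how small a difference could be detected.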
